A study of Mus musculus with 6 samples.

Results

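The cytosolic ribosomal protein genes described here are 54 genes for proteins of the ribosome that works in the cytosol, 31 of the large and 23 of the small subunit, chosen by name. A probe belonged to them when its gene symbol in the array's annotation was one of these names. That gave 66 probes of 44 genes, 23 of the large and 21 of the small subunit, among 46237 probes and 21946 gene symbols on the array. No probe was found under the other 10 names (Rpl5, Rpl7, Rpl8, Rpl11, Rpl13, Rpl15, Rpl18, Rpl36, Rps27 and Rps28), so no expression value of these genes is given. Their start sequences still enter the motif counts where RefSeq lists them. Of the 44 genes, 27 had 1 probe, 14 had 2, Rpl37 had 3, and Rpl23 and Rps24 had 4 each.

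RNA came from mouse haematopoietic stem cells, the bone marrow cells that renew all blood lineages, and was read on 6 one-colour Illumina bead arrays. The arrays fall into groups by genotype, with wt cells (3 arrays, CD45.1.2 donors) and Matn4-/- cells (3 arrays, CD45.2 donors, whose lost gene encodes the matrix adapter protein matrilin-4). Marrow of both donors was given in equal parts to CD45.1 recipients that had received 2 doses of 500 rad, so both groups had passed through irradiated hosts. After 4 weeks the stem cells were sorted by flow cytometry as LSK CD150+ CD48- cells; the labels give female C57/BL6 mice of 12 weeks for all samples, without saying whether donors or recipients are meant. Each array started from 2.5 ng of RNA, which was amplified before labelling. The design calls the 3 arrays of a group biological replicates, but the labels do not say whether each came from its own recipient. If they did not, the p-values measure only a technical spread. The 3 probes of Matn4 do not check the labels: at the brightest, wt arrays read 310.3, 158 and 378 and Matn4-/- arrays 168, 318 and 331, and where its target lies relative to the deletion is not known here.

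A ribosome consists of a small subunit, which reads the mRNA, and a large subunit, which joins the amino acids. Most of the proteins are normally needed in equal number with their partners, and the mRNAs are among the most abundant of a growing cell. Many of them begin with a C followed by an unbroken run of pyrimidines, the 5' terminal oligopyrimidine (TOP) motif, through which the mTORC1 kinase pathway controls their translation together. Stem cells of the blood are known to make protein at a low rate, and in humans loss of 1 copy of several of these genes causes Diamond-Blackfan anaemia, a failure of red cell production.

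The DNA around the annotated start was searched for the letters of the TOP motif, and is given for genes whose values are described further on. RefSeq start windows (GRCm38.p6) matched 44 of the 54 names, with 52 windows. These are 37 genes with a probe and 7 without, a different set from the 44 genes with probes. In the sequences that follow, 20 bases before and 20 bases from the annotated start on are written 5' to 3' on the gene's strand, and capitals mark a C with 4 or more further pyrimidines that begins within 10 bases of the start.
Rplp2, chr7:141447631-141447670 (+): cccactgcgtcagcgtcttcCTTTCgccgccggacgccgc
Rps6, chr4:86857348-86857387 (-): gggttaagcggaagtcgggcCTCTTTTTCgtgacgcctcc
Rpl35, chr2:39005112-39005151 (-): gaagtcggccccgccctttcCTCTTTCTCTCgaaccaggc
Rps18, chr17:33955646-33955685 (-): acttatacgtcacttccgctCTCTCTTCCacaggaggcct
Rpl38, chr11:114668560-114668599 (+): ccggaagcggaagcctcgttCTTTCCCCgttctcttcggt
Rpl12, chr2:32961692-32961731 (+): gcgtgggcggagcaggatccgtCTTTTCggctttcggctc
Rplp0, chr5:115559447-115559486 (+): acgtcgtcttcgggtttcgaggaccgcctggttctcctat
Rpl4, chr9:64173367-64173406 (+): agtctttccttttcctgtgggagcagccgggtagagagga
Rpl37, chr15:5116593-5116632 (+): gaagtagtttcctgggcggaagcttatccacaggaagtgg
In Rplp2, Rps6, Rpl35, Rps18 and Rpl38 the marked letters begin at the annotated start, and pyrimidines also stand directly before it. In Rpl12 the marked letters begin 2 bases after the start, and in Rplp0, Rpl4 and Rpl37 no such letters begin in the searched stretch. Rpl4 has such a run further upstream among the printed bases, outside that stretch. Counted from the start base on, whatever precedes it, such letters were found in 11 of the 52 member windows (21.2%). The share of all 32851 RefSeq windows, which include non-coding genes, was 2.51%. Rpl15 and Rps27, which have no probe, are among those 11. Within 10 bases on either side the shares were 53.8% and 30.7%. A start annotated a few bases away from the true one moves a gene from the first count to the second, and a larger shift takes it out of both. Absence from the counts therefore does not show that an mRNA lacks the motif.

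The longer windows, from 250 bases before to 50 bases after the start, were searched for 4 more motifs. CCGGAAG, the core of sites for ETS factors such as GABP, occurred on either strand in 34.6% of the member windows and in 8.86% of all windows. AAGATGG, the core of the YY1 site, occurred on either strand in 9.62% and 6.34%. It can share the letters AAG with CCGGAAG. The E-box CACGTG, which reads the same on both strands and is bound by MYC, was present in 13.5% against 7.15%, and TATAAA on the gene's strand in 5.77% against 8.32%. A match is only a run of letters and shows no binding in these cells.

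Before the levels, 2 features of the arrays bear on the values. The deposited intensities are linear and still contain background: 12 probes for genes of the Y chromosome, absent from female cells and called Y-linked here, read 93.1 to 142.2 with a median of 107.5, and the medians of whole arrays lay between 118.0 and 120.4. A fold change of a dim probe is therefore understated. Matn4-/- replicate 3 stood apart, with a mean Spearman correlation of 0.745 to the other arrays over all probes, where the other 5 arrays had 0.852 to 0.866. Over the ribosomal protein probes it correlated at 0.987, again the lowest, against 0.989 to 0.993 for the others. The wide range of their intensities keeps a rank correlation high, so this does not show that the array's deviation spares them. In the sorted cells 5 of 7 stem cell markers lay above all Y-linked probes on every array, and of 5 genes whose proteins the sort excludes none did, with 3 of them below on every array. Summed erythroid markers (5 genes) ranged from 1302 to 2310 over wt arrays and from 1607 to 2380 over Matn4-/- arrays, and neutrophil markers (6 genes) from 1164 to 1817 and from 1280 to 1914. Both sums were highest on replicate 3 of each genotype, as were mast cell and basophil markers (4 genes), at 574 to 823 over wt and 649 to 971 over Matn4-/- arrays. The sum of monocyte and dendritic markers (4 genes) was apart by genotype, at 502 to 534 in wt and 546 to 589 in Matn4-/- cells. Only 1 of the 4, Cd74, exceeded all Y-linked probes on every array. By the brightest probe of each gene, H2-Aa was apart. Cd74 overlapped there, at 161 to 182 in wt and 180 to 214 in Matn4-/- cells, although a dimmer Cd74 probe was apart. Csf1r and Ly86 overlapped and exceeded the brightest Y-linked probe on no array. The summed stem cell markers were lowest on Matn4-/- replicate 3, at 1543, where the other 5 arrays had 1633 to 1845. Members of that list did not all follow. By brightest probes, Kit, Mecom, Mllt3 and Fgd5 were lowest on that array, while Slamf1 (177.5) and Hlf (129.3) were highest there. Procr was at neither end. The part of these markers in the results was not tested.

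Ribosomal protein mRNAs gave some of the brightest signals of these cells. Among the brightest 1% of probes (462 probes, mean intensity from 789 up), 37 were ribosomal protein probes, or 8.01%, although they make up 0.143% of the array. On each array 19 to 21 of the 100 brightest probes belonged to them, and all 66 together took 1.20 to 1.23% of the summed intensity. Of the 44 genes, 33 had at least 1 probe in the brightest 1%. The 11 others were Rpl4, Rpl6, Rpl14, Rpl22, Rpl30, Rplp0, Rps18, Rps20, Rps23, Rps25 and Rpsa. Because a probe's brightness also depends on its own sequence and position in the mRNA, the order of the genes is an order of probes and not of mRNA amounts.

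**Figure D1:**
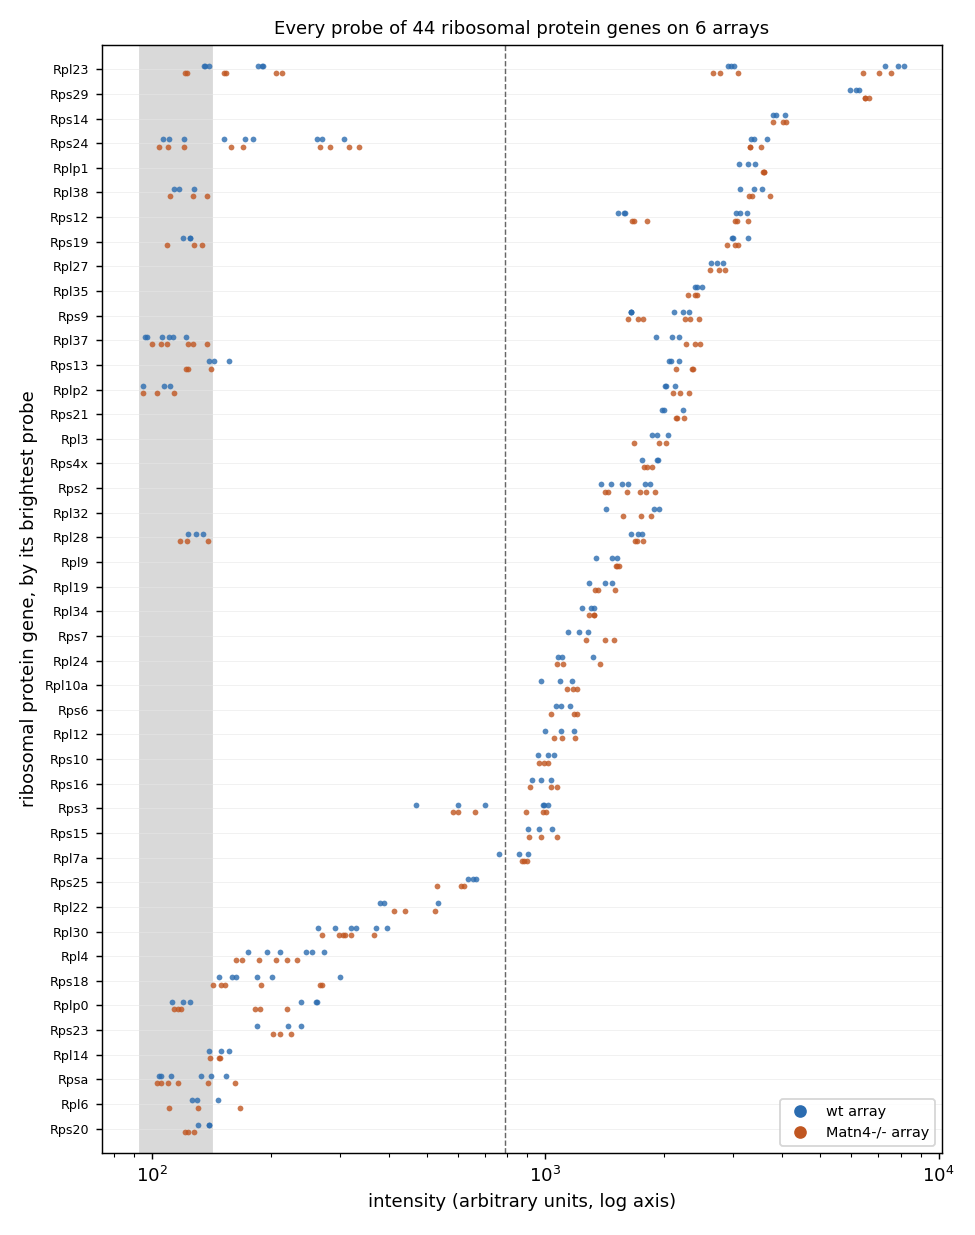
Intensity (linear units on a log axis) of every ribosomal protein probe on the 6 arrays, by gene, with wt and Matn4-/- arrays in separate colours, the range of the Y-linked probes as a grey band and the border of the brightest 1% as a dashed line. Probes of Rpl23 and Rps29 lie at the top, and 7 of the 66 probes reach the Y-linked level or lower on every array.

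The highest signal came from Rpl23, a large subunit protein that can also bind and restrain Mdm2, the ligase that degrades p53. Its brightest probe read 7284, 8160 and 7866 on the wt arrays and 6420, 7049 and 7571 on the Matn4-/- arrays, ranking between 7 and 9 on the whole array. The groups overlapped, since 1 wt array lay below the highest Matn4-/- array. Rps29, a small zinc-binding protein of the small subunit's head, followed with 6261, 5937 and 6156 in wt and 6666, 6484 and 6498 in Matn4-/- cells, at ranks 8 to 10. Here all Matn4-/- arrays lay above all wt arrays, by a log2 difference (Matn4-/- minus wt, as everywhere below) of 0.10 ± 0.07 (SE, limma adjusted p = 0.998). Rps14, whose human counterpart is lost in the 5q- syndrome, read 3800, 4055 and 3856 in wt and 3780, 4099 and 4009 in Matn4-/- cells, at ranks 15 to 17 and with overlapping groups.

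At the other end, 4 genes had no probe above all Y-linked probes on every array, namely Rpl6, Rpl14, Rps20 and Rpsa. The only probe of Rps20, a protein of the small subunit's head, read 139.8, 139.4 and 130.9 in wt and 123.0, 121.2 and 127.7 in Matn4-/- cells. The groups did not overlap, but the probe exceeded the brightest Y-linked probe on only 2 wt arrays and 1 Matn4-/- array. Its log2 difference was -0.14 ± 0.07 (limma adjusted p = 0.957). Rpl6, a large subunit protein, read 129.9, 146.7 and 126.6 in wt and 110.5, 130.4 and 166.7 in Matn4-/- cells. Rpsa, which forms part of the small subunit and is also known as the laminin receptor, read 133.1, 153.8 and 141.0 in wt and 162.3, 139.0 and 109.4 in Matn4-/- cells. In both genes the Matn4-/- arrays held the highest and the lowest value.

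No ribosomal protein gene passed the test between the genotypes. Testing was done on log2 intensities with limma over the brighter 50% of the array's probes, which kept 61 of the 66 ribosomal protein probes and at least 1 probe of each of the 44 genes. At an adjusted p under 0.05, 0 of the 61 probes were called, where 11 of all 23118 tested probes were (0.0476%). The smallest adjusted p of a ribosomal protein probe was 0.506, for Rplp0. At an unadjusted p under 0.05, 1 probe was higher in Matn4-/- cells (Rpl37), with 1.68% of all tested probes on that side, and 2 were lower (Rplp0 and Rpl4), with 3.76% of all. For 5 probes all Matn4-/- arrays lay above all wt arrays, against 4.04% of all tested probes, and for 4 they lay below, against 6.37%. These were Rps29, Rplp1, the second probe of Rps12 and both tested probes of Rpl37 on the higher side, and Rplp0, Rpl4, Rps20 and Rps25 on the lower side. As shares of the 61 probes these are 8.20% and 6.56%, above the share of the whole array on the higher side and close to it on the lower side, without a test of either.

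The sizes were small. Over the 61 probes the median log2 difference was 0.02, with 35 probes higher and 26 lower, while over all tested probes it was -0.0088. It was 0.0073 over 31 probes of the large subunit and 0.02 over 30 of the small subunit, so both medians lay slightly above 0. The differences ran from -0.37 (Rplp0) to 0.23 (the third probe of Rps24).

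**Figure D2:**
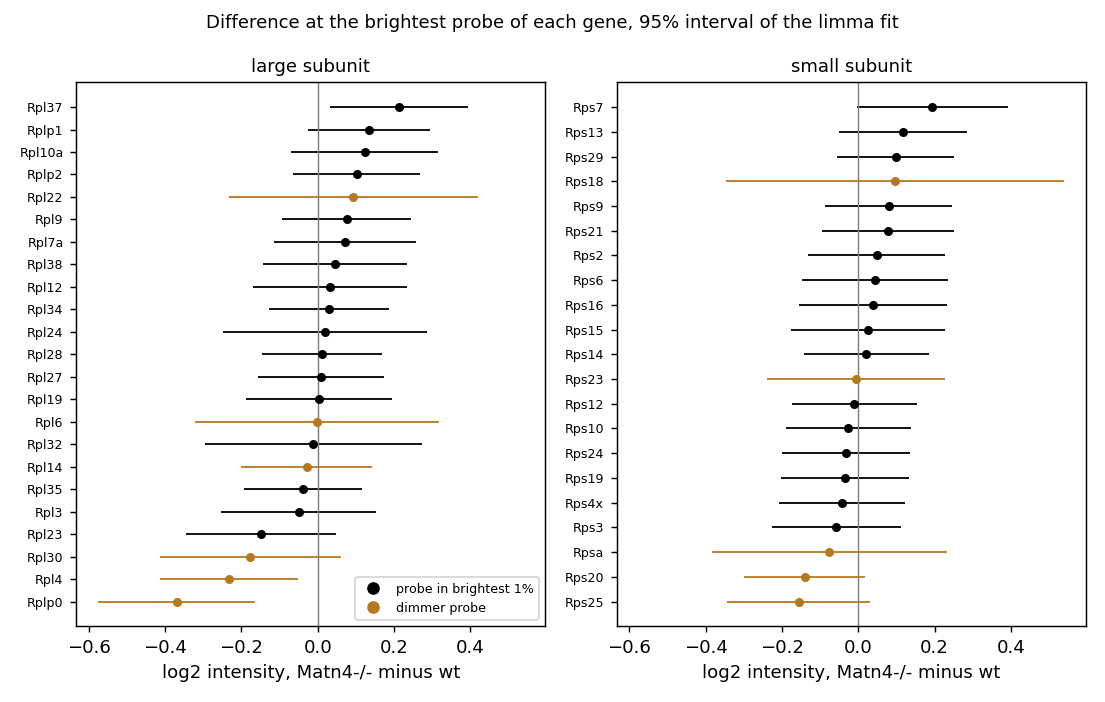
Log2 difference in intensity, Matn4-/- minus wt, for the brightest probe of each of the 44 genes, in 1 panel per subunit, with the 95% interval of the limma fit as a bar and dimmer probes in a separate colour from those in the brightest 1%. The intervals of Rplp0, Rpl4 and Rpl37 leave out 0, and Rplp0 at -0.37 lies furthest from it.

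How closely a difference could be bounded depended on brightness. The 37 ribosomal protein probes in the brightest 1% had a median residual SD of 0.0665 on the log2 scale, against 0.0992 for all 462 probes of that class. For the 24 dimmer ribosomal protein probes it was 0.133, against 0.107 for all dimmer tested probes. Among the 33 genes with a probe in the brightest 1%, the 95% interval of 30 lay wholly within a 1.25-fold change in either direction, a limit chosen after the values were seen. The 3 exceptions were Rpl23, Rpl37 and Rps7. Of the 11 dimmer genes, Rps23 had an interval that narrow with a probe above all Y-linked probes on every array. Its interval is understated too, because the probe averaged 213 where the median Y-linked value was 107.5. The narrow intervals of Rpl6, Rpl14 and Rps20 bound nothing, because background makes up much of their signal. These intervals are not adjusted for the number of genes.

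The direction differed between the brightness classes, without a test of that split. Of the 33 bright genes 23 were higher and 10 lower in Matn4-/- cells (median 0.03), and of the 11 dimmer genes 2 were higher and 9 lower (median -0.08). Over probes the bright class had 26 higher and 11 lower, where all 462 probes of that class had 247 and 215. The dimmer ribosomal protein probes had 9 higher and 15 lower, where all dimmer tested probes had 10410 and 12246 (median -0.0092). Cyclic loess normalization gave 19 and 14 for the bright genes and 4 and 7 for the dimmer ones. Without Matn4-/- replicate 3 the counts were 20 and 13, and 4 and 7, with a dimmer median of -0.14, and without wt replicate 2 the bright median fell to 0.0071 with 19 higher and 14 lower. Leaving out wt replicate 1 gave a bright median of 0.05 and a dimmer one of -0.12, and with the Y-linked background subtracted the dimmer median was -0.20. Without Matn4-/- replicate 1 the dimmer median was -0.12. On Matn4-/- replicate 3 the dimmer ribosomal protein probes had a median of -0.11 relative to each probe's mean over the arrays, against -0.01 to 0.06 on the other 5 arrays. Over all tested probes that array's median was -0.05. Medians of the bright ribosomal protein probes were 0.0056 to 0.03 on the 3 Matn4-/- arrays and -0.02 to -0.0048 on the wt arrays, so the groups were apart by a small amount. The same held for all probes of the brightest 1%, at 0.00075 to 0.02 on the Matn4-/- arrays and -0.01 to -0.0011 on the wt arrays.

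**Figure D3:**
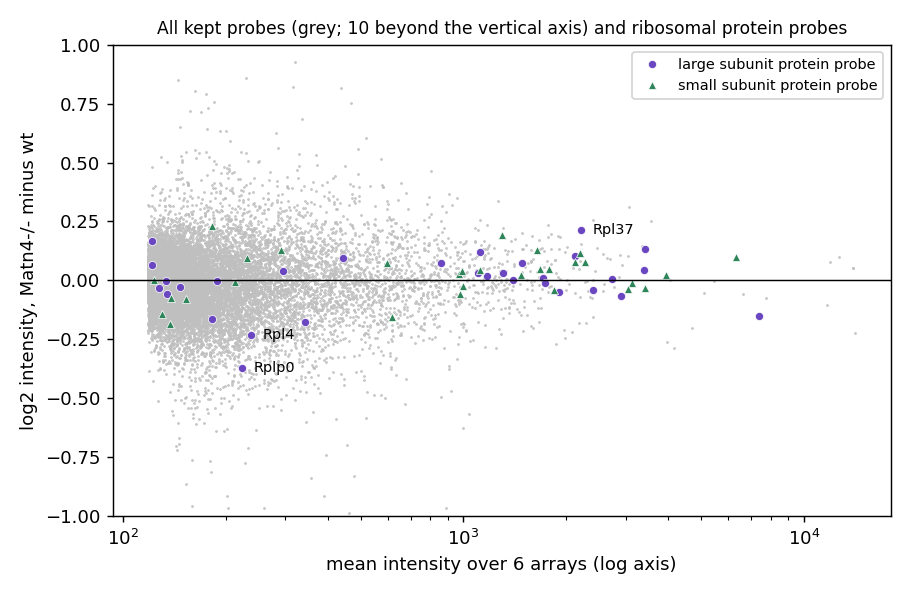
Log2 difference, Matn4-/- minus wt, against mean intensity (log axis) for all tested probes, with the ribosomal protein probes marked with the subunits as separate symbols and 10 probes lying beyond the vertical axis. The bright ribosomal protein probes gather near 0, and the dim ones scatter more widely.

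The P stalk of the large subunit recruits and activates elongation factors, and consists of Rplp0, which anchors it, the paired proteins Rplp1 and Rplp2, and Rpl12 at its base. Rplp0 had the largest difference toward lower values among the 61 tested probes of the members. Its brightest probe read 261, 262 and 239 on the wt arrays and 188, 220.3 and 183 on the Matn4-/- arrays. All Matn4-/- arrays lay below all wt arrays, at means of 197 ± 20.3 and 254 ± 12.9 (SD, n = 3 each). The log2 difference was -0.37 ± 0.09 (SE, limma adjusted p = 0.506). With the Y-linked background subtracted it was -0.77 (adjusted p = 0.764), and without Matn4-/- replicate 3 it was -0.32 (adjusted p = 0.523). The other probe of Rplp0 read 119 in wt and 116 in Matn4-/- cells, no higher than the brightest Y-linked probe on any array, and gives no second reading.

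The partners of Rplp0 did not share its direction. Rplp1 read 3106, 3284 and 3408 in wt and 3565, 3594 and 3591 in Matn4-/- cells. These groups did not overlap either, with Matn4-/- higher by 0.14 ± 0.07 (limma adjusted p = 0.957). Rplp2 read 2016, 2138 and 2025 in wt and 2323, 2112 and 2197 in Matn4-/- cells, a difference of 0.10 ± 0.07 (adjusted p = 0.998, limma). Only the lowest Matn4-/- array fell into the wt range. Rpl12 read 1184, 996.6 and 1092 in wt and 1050, 1105 and 1189 in Matn4-/- cells, which overlap throughout, for a difference of 0.03 ± 0.09.

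Rpl4 and Rpl37 were the other genes of the large subunit at an unadjusted p under 0.05. Rpl4, a protein whose long loop lines the exit tunnel for the new chain, read 256, 246 and 273 in wt and 233, 207 and 219.9 in Matn4-/- cells with its brighter probe. The groups were apart, at -0.23 ± 0.08 (limma adjusted p = 0.790), and the value with the Y-linked background subtracted was -0.45. Its other probe read 196, 175 and 211 in wt and 169, 187 and 163 in Matn4-/- cells. That probe pointed the same way at -0.16 ± 0.09, but 1 Matn4-/- array lay inside the wt range. Rpl37, a zinc-binding protein of the large subunit, read 1907, 2092 and 2189 in wt and 2282, 2403 and 2475 in Matn4-/- cells. All Matn4-/- arrays were above all wt arrays, by 0.21 ± 0.08 (limma adjusted p = 0.853). Its second probe differed by 0.17 in the same direction but never exceeded the brightest Y-linked probe, at 110.6 to 121.6 in wt and 123.2 to 137.8 in Matn4-/- cells. The third lay below the filter, at 99.7 and 105.

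**Figure D4:**
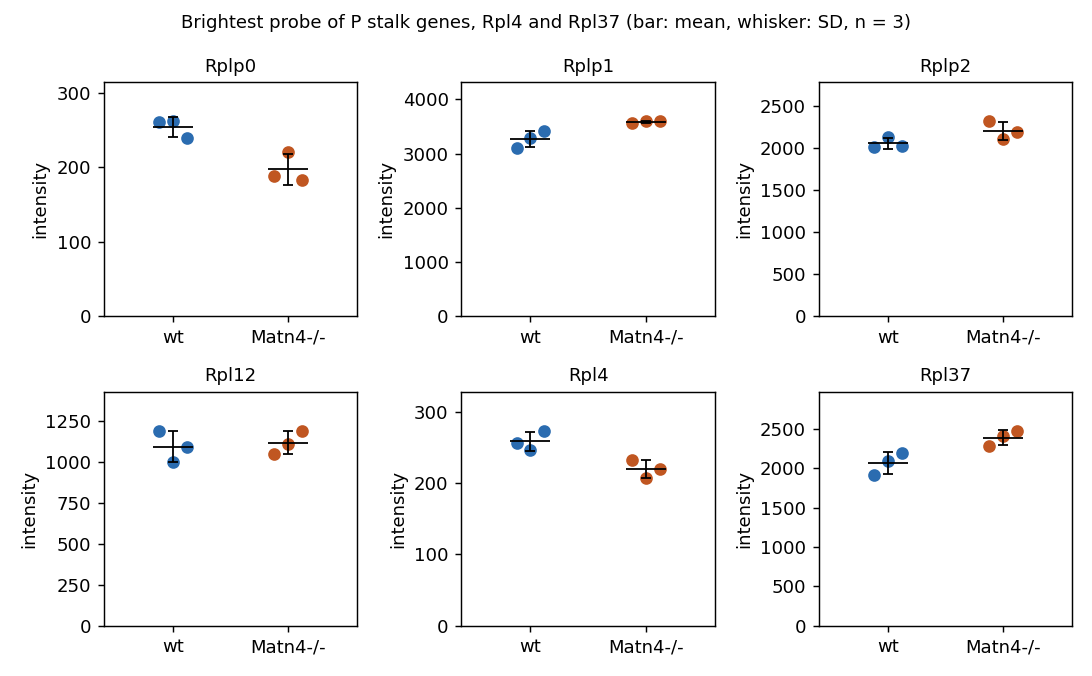
Intensity (linear axis from 0) of the brightest probe of Rplp0, Rplp1, Rplp2, Rpl12, Rpl4 and Rpl37 on each array, with points for arrays, a bar for the mean and whiskers for the SD (n = 3). In Rplp0 and Rpl4 all Matn4-/- points lie below the wt points, in Rplp1 and Rpl37 above them, and in Rplp2 and Rpl12 they overlap.

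Other large subunit genes showed overlapping groups. Rpl22, a protein with a paralogue (Rpl22l1) that can replace it in mouse ribosomes, differed by 0.09 ± 0.14. Rpl38, which mouse genetics links to the translation of certain Hox mRNAs, differed by 0.04 ± 0.08 on its bright probe. Rpl24, a protein at the contact between the subunits, differed by 0.02 ± 0.12, and Rpl3, which lies near the peptidyl transferase centre, by -0.05 ± 0.09. Rpl32 had a wide error of 0.13 around a difference of -0.01, and the dim Rpl14 differed by -0.03 ± 0.08. Rpl10a, Rpl9 and Rpl7a differed by 0.12, 0.08 and 0.07, and the remaining bright genes (Rpl19, Rpl27, Rpl28, Rpl34 and Rpl35) by -0.04 to 0.03.

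In the small subunit, Rps6 is the protein that S6 kinase phosphorylates downstream of mTORC1. It read 1097, 1061 and 1157 in wt and 1183, 1204 and 1034 in Matn4-/- cells, with overlapping groups and a difference of 0.04 ± 0.08. Rps19, the gene most often mutated in human Diamond-Blackfan anaemia, read 2979, 3266 and 2995 in wt and 2894, 3082 and 3039 in Matn4-/- cells. Its groups overlapped, and the 95% interval of its log2 difference ran from -0.20 to 0.13. Of the 13 members known as human disease genes of that anaemia, 7 had a probe, all of them in the brightest 1%. Of these, 3 were higher and 4 lower in Matn4-/- cells, with a median of -0.03 against -0.0076 over all genes tested by their brightest probe.

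Among those 7 genes Rps7, whose protein binds Mdm2, had the largest difference. It read 1286, 1219 and 1143 in wt and 1421, 1267 and 1490 in Matn4-/- cells, at 0.19 ± 0.09 (limma adjusted p = 0.929). Only the lowest Matn4-/- array overlapped with wt. Rps25, which several viral internal ribosome entry sites require, read 666, 654 and 636 in wt and 619.8, 530.1 and 610.1 in Matn4-/- cells. Its groups were apart, at -0.16 ± 0.08 (limma adjusted p = 0.957). Rps4x is the member on the X chromosome and read 1937, 1922 and 1765 in wt and 1861, 1814 and 1783 in Matn4-/- cells, with overlapping groups at -0.04 ± 0.07. The other genes of the small subunit with a single probe, Rps10, Rps15, Rps16, Rps21 and Rps23, differed by -0.03 to 0.08.

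The members lie on 17 chromosomes, with at most 7 of the 44 on any of them. Chromosome 2, which carries Matn4, holds Rpl7a, Rpl12, Rpl35 and Rps21, with differences of 0.07, 0.03, -0.04 and 0.08. All 4 had overlapping groups.

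Probes of 1 gene often differed in brightness by far more than the genotypes did. For 14 genes with several tested probes, the brightest was paired with each other one, giving 17 pairs. The ratio of intensities within a pair ran from 1.16 (Rpl30) to 54.8 (Rpl23), with a median of 11.7, and exceeded 10 in 9 pairs. The 4 probes of Rpl23 averaged 7370, 2900, 189 and 134. Those of Rps24, whose mRNA is known to be spliced in several forms, averaged 3422, 292, 182 and 112. Ribosomal protein genes have many processed pseudogenes of nearly the same sequence, and without probe sequences the copy or isoform that a probe reads was not tested.

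Within the pairs, no gap between the genotype differences of the brighter and the other probe passed the adjusted threshold. At an adjusted p under 0.05, 0 of the 17 pairs were called, as were 0 of all 5948 probe pairs on the array (0%, limma on the difference within each array). With none called on the whole array, this does not show that probes of 1 gene agree. At an unadjusted p under 0.05 there was 1 of 17, against 5.68% of all pairs. In 9 of the 17 pairs the probes had opposite signs, and the same share over all pairs was not counted. Among these were pairs whose other probe averaged within the Y-linked range, as in Rps13 (137), Rpl28 (127) and Rps19 (123). The pair at an unadjusted p under 0.05 was that of Rps13, a small subunit protein, where the bright probe minus the other gave 0.30 ± 0.13 (limma adjusted p = 0.872).

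The bright probe of Rps13 read 2087, 2180 and 2067 in wt and 2357, 2368 and 2150 in Matn4-/- cells, and the dim one 156.5, 139.1 and 143.5 against 122.1, 123.6 and 141.0. The dim probe exceeded all Y-linked probes on 2 wt arrays and 1 Matn4-/- array, and groups overlapped in both probes. In Rps24 the probe at 182 read 173, 180.1 and 153 in wt and 283, 170.4 and 159 in Matn4-/- cells. Its difference of 0.23 ± 0.19 came with a single array, Matn4-/- replicate 1, standing above the rest, while the brightest Rps24 probe read 3659, 3392 and 3336 in wt and 3303, 3323 and 3534 in Matn4-/- cells, a difference of -0.03 ± 0.07. Pair differences were -0.26 ± 0.21 and -0.16 ± 0.14 for its dimmer probes.

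Rpl30, a small RNA-binding protein of the large subunit, had a nearly equal pair. Its brighter probe read 371, 396 and 329 in wt and 298, 366 and 306 in Matn4-/- cells (-0.18 ± 0.10), and the other 320.3, 291 and 264 against 309, 321 and 269.6 (0.04 ± 0.10). Groups overlapped in both. Rps18, a protein of the small subunit's head, varied widely between arrays of 1 group: its brighter probe read 202, 299.5 and 185 in wt and 189, 270.1 and 268 in Matn4-/- cells. The residual SD was 0.334 on the log2 scale, against 0.0633 for its other probe, which read 148, 163 and 159.7 in wt and 153, 149 and 143 in Matn4-/- cells.

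Rps12, also of the small subunit, had 2 bright probes. The brighter read 3126, 3263 and 3056 in wt and 3072, 3026 and 3284 in Matn4-/- cells, at -0.01 ± 0.07 and with overlap. The other read 1586, 1533 and 1596 in wt and 1663, 1817 and 1678 in Matn4-/- cells, at 0.13 ± 0.07 and without overlap. The pair difference was -0.14 ± 0.11. In Rpl23 the pair of the probes at 7370 and 189 differed by -0.15 ± 0.17. Pairs of similar brightness with similar differences were those of Rps2 (0.05 and 0.02) and Rps9 (0.08 and 0.05), while Rps3, which lies at the mRNA entry, had -0.06 and 0.08.

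**Figure D5:**
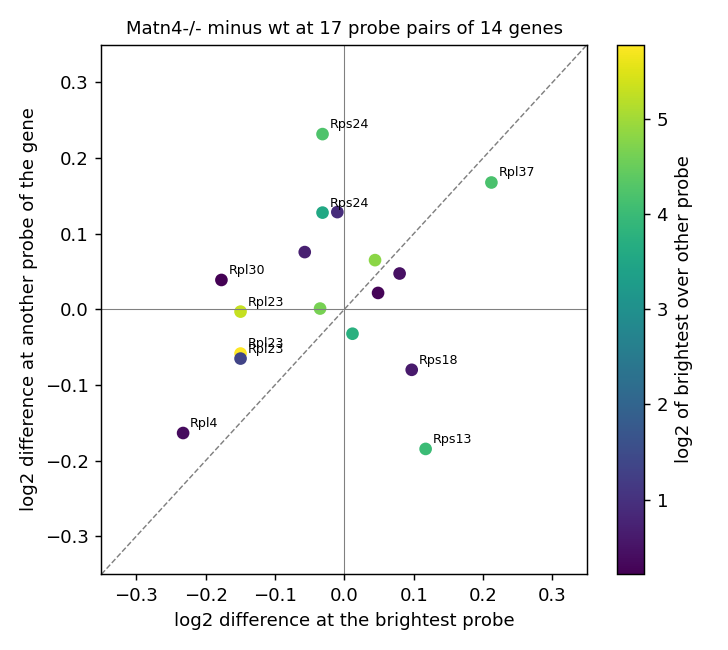
Log2 difference, Matn4-/- minus wt, of the other tested probe against that of the brightest probe for the 17 probe pairs of 14 ribosomal protein genes. Colour gives the log2 ratio of brightness and the dashed line equality; signs are opposite in 9 pairs, and the pair of Rps13 lies furthest from the line of equality.

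Genes that work with these proteins were described in the same way, each by its brightest tested probe, and none passed the test. At an unadjusted p under 0.05 there were 2 lower genes among further large subunit proteins, 1 higher translation gene, 1 higher and 3 lower assembly factors, 1 higher and 2 lower mitochondrial genes and 1 higher mTORC1 pathway gene. Over all 12764 genes the shares were 1.97% higher and 4.07% lower, and 0.0548% passed the adjusted threshold. Of 13 further large subunit genes with a tested probe, 7 were higher and 6 lower (median 0.01). Rpl13a, whose protein also takes part in a translational silencing complex in human cells, read 476 ± 54.4 in wt and 366 ± 68.0 in Matn4-/- cells, a log2 difference of -0.39 ± 0.14 (limma adjusted p = 0.806). Rpl27a read 5053 ± 423 and 4386 ± 264, at -0.20 ± 0.09 (limma adjusted p = 0.907). Of 4 further small subunit genes 1 was higher and 3 lower (median -0.06), with Rps26 at -0.11.

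Translation elongation factors and other TOP mRNA genes had 9 higher and 7 lower of 16 (median 0.05). Eif4b, a cofactor of the helicase that unwinds mRNA leaders, read 367 ± 6.58 in wt and 474 ± 83.2 in Matn4-/- cells, at 0.36 ± 0.12 (limma adjusted p = 0.780). Ribosome assembly factors had 11 higher and 24 lower of 35 (median -0.06), where all 12764 genes had 5957 higher and 6807 lower. The 3 with the smallest p were Sbds, which with its partner releases Eif6 from the new large subunit, Polr1c, a subunit of RNA polymerases I and III, and Eif6 itself. Their differences were -0.30, -0.20 and -0.25 (limma adjusted p of 0.853, 0.863 and 0.902).

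Mitochondrial ribosomal proteins, which form the separate ribosome of that organelle, had 35 higher and 35 lower of 70 (median 0.0024). Mrps17 read 251 ± 22.1 in wt and 174 ± 31.7 in Matn4-/- cells, at -0.54 ± 0.13 (limma adjusted p = 0.478). Genes of the mTORC1 and S6 kinase pathway had 8 higher and 6 lower of 14 (median 0.01). Eif4ebp2, a repressor of cap-dependent translation, read 372 ± 21.5 and 469 ± 23.9 at 0.33 ± 0.08 (limma adjusted p = 0.478). Genes of p53 and nucleolar stress, a response to faulty ribosome assembly, had 5 higher and 6 lower of 11 (median -0.02).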

How the data were processed

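The values used are the deposited intensity of each probe on each array, on a linear scale. No source used here states how the authors normalized them or treated background. Another deposited table of non-normalized signals was not used, because none of its 12 value columns has a name that matches a label. Of 46237 probes, 35784 had 1 gene symbol in the platform annotation, 0 had several and 10453 had none. Current symbols were looked up through Entrez numbers (28620 probes) or accessions (2637 probes), and this changed no ribosomal protein probe.

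The linear models of limma 3.58.1 (R 4.3.3; lmFit, then eBayes) were run on log2 intensities with genotype as their sole term, over the 23118 probes in the brighter 50% by mean log2 intensity, with Benjamini-Hochberg adjustment over all of them. All differences on the log2 scale come from this fit, and SE is its standard error. Differences between probes of 1 gene were fitted the same way. The fit was first tested on simulated data. Python 3.11.15, pandas 2.3.3 and matplotlib 3.10.9 served for sequences and plots. The number of arrays limits the precision.

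The members and gene lists were chosen with earlier results of these data known. Values on each array are given for the P stalk, Rps19, Rps6, Rpsa and Rps4x, for members at an unadjusted p under 0.05, for the 6 whose probes differed most, and for the 3 brightest and 3 dimmest. Up to 3 genes of each other list are named by smallest p. Rps7, Rps25 and the further members were singled out after their values were seen. Alternatives changed the filter, the unit tested, normalization, background, variance model, array weights, pairing, symbol matching and the replicates.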

Additional observations from a re-analysis of the deposited data

How the results depend on the processing

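Under all 17 alternatives no ribosomal protein probe, no probe pair of these genes and no gene of the other lists passed an adjusted p under 0.05 in limma, and 22 of the 44 genes kept the sign of their brightest probe in every one. At an unadjusted p under 0.05 in limma there were 3 of 61 ribosomal protein probes as reported, against 5.45% of all tested probes. With no filter on dim probes there were 8 of 66, against 4.52% of all probes. The count was 5 with cyclic loess, 6 with a trended and robust variance model and 7 with array weights. Leaving out 1 array at a time gave 2 to 7, with 7 without Matn4-/- replicate 3. The share of all probes under these other settings, and under the replicate block below, is not given here. Those counts therefore do not show whether a rise is particular to ribosomal protein genes. The number of all probes called, 11 as reported, was 7 with 1 probe per gene, 2 with the Y-linked background subtracted, 17 with the trended and robust model, and 3 to 9 with 1 array left out. The median of the ribosomal protein probes stayed above 0 in every alternative and ran from 0.00071 to 0.028 with 1 array left out. Background subtraction took off each array's median Y-linked value and raised any remainder under a fixed low floor to that floor. It moved dim genes most, with Rps20 at -0.83 in place of -0.14. The size for Rps20 depends on the floor, which some of its Matn4-/- readings reached.

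The deviations of same-numbered arrays correlated at r of 0.0096, 0.044 and 0.050 over all tested probes and at 0.23, 0.27 and -0.01 over the ribosomal protein probes. Differently numbered arrays had r of -0.067 to 0.020 over all tested probes and of -0.28 to 0.096 over the ribosomal protein probes. These values do not decide whether the numbers are pairs. The main fit did not take them as pairs, although several marker sums peaked on the same number in both genotypes. Erythroid, neutrophil, mast cell and basophil, and sort-excluded sums peaked on replicate 3 of both. B cell, megakaryocyte, and monocyte and dendritic sums peaked on replicate 1 of both. Stem cell sums and T and NK cell sums peaked on different numbers. The labels do not say whether numbers mark shared recipients. With the replicate number as a block, 13 probes of the whole array and 0 ribosomal protein probes were called, 3 of the latter had an unadjusted p under 0.05, and the median remained 0.02. The fit for 1 probe per gene gives no probe pairs, and Rpl6 and Rps20 drop out when only the brighter 25% of probes are kept.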
